A study of Danio rerio with 85 samples.

Results

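The regions described here are stretches of the zebrafish genome at which H3K27me3 peaks were listed in both of mutant replicates 2 and 4 and in neither wildtype replicate. They were selected on the measured H3K27me3 peaks themselves. Peaks of a list at most 1000 bp apart were merged, merged peaks that overlapped an input peak were dropped, and the stretches shared by mutant replicates 2 and 4 were kept where they overlapped no H3K27me3 peak of wildtype replicate 1 or 2. Of 2201 stretches common to the 2 mutant replicates, 509 (23.1%) met this rule and are named mutant-only regions here. Of the other 1692, 356 also had a peak in 1 wildtype replicate and 1336 in both wildtype replicates. The H3K27me3 values of mutant replicates 2 and 4 and of both wildtype replicates therefore only describe the selection, whereas the H3K27me3 peaks of mutant replicate 3 and all Rnf2 peaks took no part in it.

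The data were ChIP-seq peak lists of whole zebrafish embryos at 3 dpf. The mutant embryos were myl7:GFP_rnf2-/- (the *ibl31* allele) and the controls myl7:GFP_rnf2+/+, both labelled TU/TLF mixed background, so that all groups carry the *myl7:GFP* heart reporter in their label. Mutants were picked by phenotype from crosses of heterozygous fish, while the controls were of a wildtype strain with the same background. Each sample was chromatin from a pool of deyolked embryos, with 3 mutant (replicates 2, 3 and 4) and 2 wildtype (replicates 1 and 2) samples per antibody and 1 input of each genotype. Being from whole embryos, a peak cannot tell a stronger mark per cell from more cells that carry it. Differences between the crosses that gave the mutants and the wildtype strain cannot be told apart from the *rnf2* genotype.

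Rnf2, also known as Ring1b, is the catalytic subunit of Polycomb repressive complex PRC1, which attaches ubiquitin to histone H2A. H3K27me3 is the histone mark laid down by the other Polycomb complex, PRC2, through its subunit Ezh2, and it marks developmental genes that are kept silent. The complexes can each bind or recognize the mark of the other, so that their peaks are often found at the same loci, and broad stretches covered by both are known as Polycomb domains.

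The counts of merged peaks given next are after removal of those that overlapped an input peak. The H3K27me3 lists held 2861, 1031 and 2855 merged peaks in mutant replicates 2, 3 and 4, against 2154 and 1940 in wildtype replicates 1 and 2. The Rnf2 lists held 18, 38 and 22 merged peaks in the mutant samples, against 1050 and 1049 in the wildtype samples. Before that removal the Rnf2 lists held 114, 89 and 33 merged peaks in the mutant samples, against 1311 and 1333 in the wildtype samples. The Rnf2 lists thus follow the genotypes of the labels. Mutant replicate 3 stood apart in H3K27me3. Its peaks covered 728362 bp with a median width of 443 bp, against 5207154 bp and 971 bp in mutant replicate 2 and 5580975 bp and 927 bp in mutant replicate 4. The rule leaves mutant replicate 3 out, and it is used here only as a separate readout. The fold of a peak is its MACS enrichment over background, and −log10 q is the significance that MACS gave it. The median fold over all deposited H3K27me3 peaks was 4.64, 4.95 and 4.91 in mutant replicates 2, 3 and 4. In wildtype replicates 1 and 2 it was lower, at 3.71 and 4.05. Every H3K27me3 peak listed had a −log10 q of at least 2.01, and without read counts in the lists the sequencing depth is unknown. The Rnf2 lists reach lower, to 1.26, 1.11 and 1.23 in mutant replicates 2, 3 and 4 and to 1.02 and 1.04 in wildtype replicates 1 and 2. The sample titles name a spike-in for all ChIP-seq samples. The names of both lists of wildtype replicate 2 bear no mark of normalization, unlike the other lists of both antibodies, although the entries inside its H3K27me3 list do.

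The mutant-only regions were narrow. Their median width was 366 bp (quartiles 191 and 657 bp, range 1 to 2727 bp), against 626.5 bp for regions with 1 wildtype replicate and 1705.5 bp for regions with both. Of the 509, 321 (63.1%) were narrower than 500 bp and 44 (8.64%) wider than 1000 bp. Among regions with both wildtype replicates, 945 of 1336 (70.7%) exceeded 1000 bp. The merged peaks behind the mutant-only regions were wider, with medians of 700 bp in mutant replicate 2 and 609 bp in mutant replicate 4. Those behind regions with both wildtype replicates had medians of 2254.5 and 2872.5 bp. Because of their small size the mutant-only regions made up 249705 of the 4108989 bp common to the 2 mutants, or 6.08%, although they were 23.1% of the regions by number. None of these differences was tested, since the peaks compared are those that chose the regions.

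**Figure D1:**
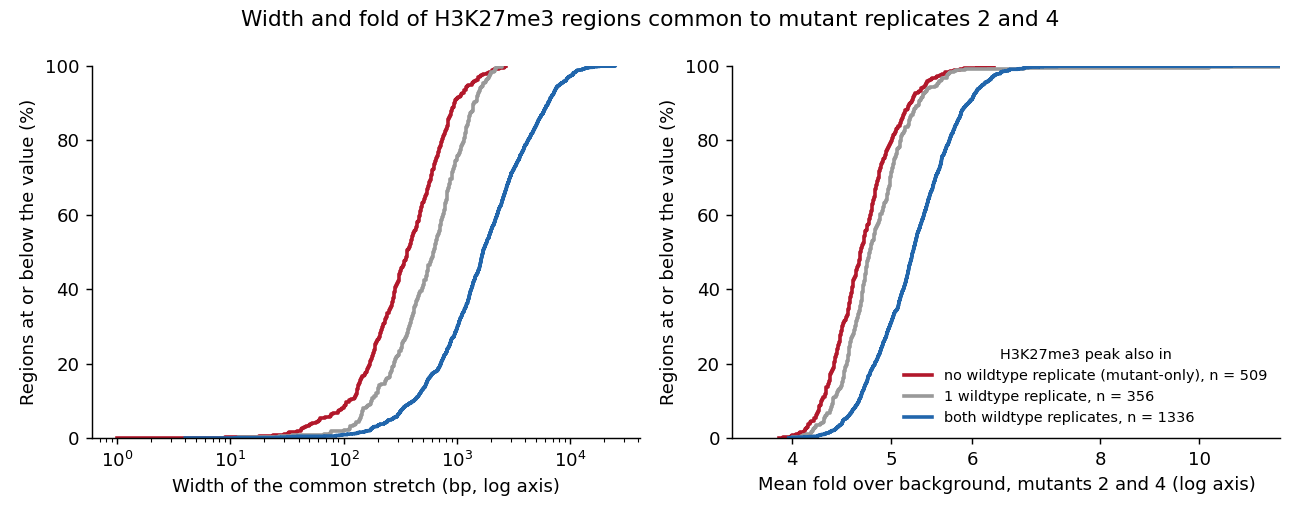
Cumulative share of regions (%) against the width of the common stretch (bp, log axis, left) and against the mean fold over background in mutant replicates 2 and 4 (log axis, right), with 1 line each for the 509 mutant-only regions, the 356 regions with 1 wildtype replicate and the 1336 with both. The mutant-only line lies furthest left in both panels, with medians of 366 bp and 4.67-fold, against 1705.5 bp and 5.25-fold for regions with both wildtype replicates, and regions above 12-fold are off the right axis.

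Over all deposited peaks, before merging, the median fold was 4.64 in mutant replicate 2 and 4.91 in mutant replicate 4. The fold and −log10 q of a region are instead the highest over all entries merged into the peak behind it, also outside the shared stretch. The 2 measures are therefore not alike. The fold of the mutant-only regions was, in the median, below that of the regions with a wildtype peak. In mutant replicate 2 it ranged over 3.67 to 6.75 with a median of 4.60, against a median of 4.67 at regions with 1 wildtype replicate and 4.99 at regions with both. In mutant replicate 4 the range was 3.93 to 6.92 and the median 4.69, against 4.85 at regions with 1 wildtype replicate and 5.51 at regions with both. The distributions overlapped widely, but no mutant-only region had a fold above 6.92 in either list, whereas the highest at a region with both wildtype replicates was 35.5 in mutant replicate 2. The median −log10 q of the mutant-only regions was 3.28 in mutant replicate 2 and 3.20 in mutant replicate 4, against 4.09 and 4.58 at regions with both wildtype replicates. In broad peak calling, a strong sub-peak is a stretch inside the peak that passes the stricter of the 2 thresholds. Of the mutant-only regions 128 (25.1%) had a strong sub-peak in both mutant replicates and 162 (31.8%) in neither. At regions with both wildtype replicates these were 1038 (77.7%) and 39 (2.92%). Sub-peaks were summed over the entries merged into a peak. Only 1 entry per mutant replicate was behind 444 (87.2%) of the mutant-only regions, against 639 (47.8%) of regions with both wildtype replicates. A merged peak behind several regions counts at each. The part of merging in these differences was not tested.

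The order of the mutant-only regions by fold was poorly shared between the 2 mutant replicates. Across the 509 regions the log2 folds had a Pearson correlation of 0.17 and a Spearman correlation of 0.17. Across the 356 regions with 1 wildtype replicate they were 0.37 and 0.15, and across the 1336 with both wildtype replicates 0.41 and 0.36, so that a weak shared order was not particular to the mutant-only regions. These are correlations across regions of the same 2 libraries, given as a description. The peak of mutant replicate 4 had the higher fold at 304 (59.7%) of the mutant-only regions, 220 (61.8%) of the regions with 1 wildtype replicate and 1043 (78.1%) of the regions with both. Among merged peaks that touched no wildtype peak, the overlap between the 2 lists was partial as well. The same share over all merged peaks was not counted. Mutant replicate 2 held 1002 merged peaks that touched no wildtype peak, of which 467 (46.6%) touched a peak of mutant replicate 4, and mutant replicate 4 held 1068, of which 474 (44.4%) touched a peak of mutant replicate 2.

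**Figure D2:**
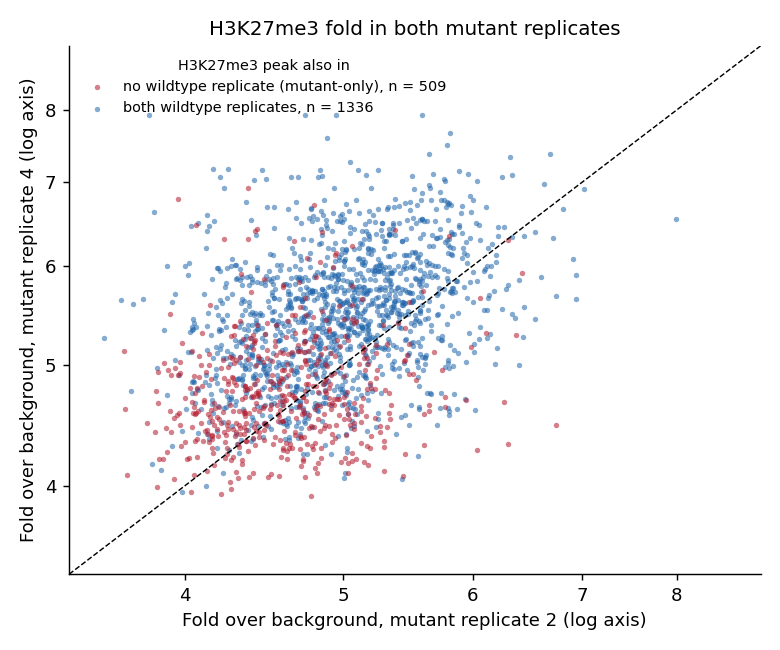
Fold over background in mutant replicate 2 (x, log axis) and mutant replicate 4 (y, log axis), 1 point per region, for the 509 mutant-only regions and the 1336 regions with both wildtype replicates, with the dashed line marking equal fold. The mutant-only points gather near the low corner without exceeding 6.75 on the x axis or 6.92 on the y axis, and 2 regions with both wildtype replicates lie outside the axes.

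Leaving out a library drops a condition of the rule, and the number of regions was then larger in each case. Without mutant replicate 2 it was 1068 of the 2855 merged peaks of mutant replicate 4. Without mutant replicate 4 it was 1002 of the 2861 merged peaks of mutant replicate 2. Of the 2201 common regions it was 785 without wildtype replicate 1 and 589 without wildtype replicate 2. When only mutant peaks at or above the median −log10 q of all H3K27me3 peaks (3.51) were used, the common regions fell as well. Of 997 common regions, 78 then met the rule, against 509 of 2201 with all peaks. The same rule with the genotypes exchanged gave 158 wildtype-only regions of 1543 common to both wildtype replicates (10.2%). Their median width was 320.5 bp and the median of their mean folds 3.90. Mutant replicate 3 had a peak at 2 of the 158, and 21 overlapped an Rnf2 peak of either wildtype replicate. At the 509 mutant-only regions these counts were 28 and 4. Before merging, the median fold of the whole H3K27me3 list was 3.71 in wildtype replicate 1 and 4.05 in wildtype replicate 2. The mutant lists that make the 509 regions are the longer ones. The part of list length in the counts of 509 and 158 was not tested.

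The 10 regions with the highest mean fold lay on 8 chromosomes and 1 unplaced scaffold. At the head stood chr23:117763-118343 (581 bp), with a fold of 6.31 in mutant replicate 2 and 6.29 in mutant replicate 4 and no peak in mutant replicate 3. Its nearest wildtype H3K27me3 peak was 3047 bp away. The neighbouring member chr23:115000-115816, looked up after the values were seen, belongs to the same merged peak of mutant replicate 2 and so shares its fold of 6.31, with 4.32 in mutant replicate 4. The 509 regions came from 507 merged peaks of mutant replicate 2 and 505 of mutant replicate 4. At chr5:9074749-9074910 (162 bp) the folds in mutant replicates 2 and 4, in this order here and in the next paragraphs, were 6.44 and 5.92, at chr17:15374075-15374918 (844 bp) 5.80 and 6.34, and at chr18:33336552-33337711 (1160 bp) 5.38 and 6.42. Of the 10, only chr18:33336552-33337711 also had a peak in mutant replicate 3, of 5.13-fold. The other 6 of the 10 had mean folds of 5.65 to 5.86, namely chr15:1291437-1291617, chr20:38821339-38821472, chr10:17330-18116, chr18:26353154-26354616, chr6:9708085-9708271 and 1 on the unplaced scaffold KN150240.1. Agreement between replicates varied among them, as chr18:26353154-26354616 had 5.60 and 5.72 while chr6:9708085-9708271 had 4.37 and 6.92.

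The widest region was chr23:45843325-45846051, with 2727 bp and folds of 5.17 in mutant replicate 2 and 4.78 in mutant replicate 4. It was followed by chr15:78914-81556 (2643 bp, 4.91 and 4.83), chr9:40744217-40746841 (2625 bp, 5.30 and 4.35), chr14:2113422-2115800 (2379 bp, 4.67 and 5.31) and chr10:21768834-21771117 (2284 bp, 5.06 and 5.58). The widest regions were thus not those with the highest fold. The merged peaks behind the chromosome 10 region held 2 strong sub-peaks in mutant replicate 2 and 6 in mutant replicate 4. These counts are of the whole merged peaks and not of the shared stretch. The region lay 957 bp from a wildtype peak.

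Some regions were close to the limit of the rule. Just inside it, chr17:30648074-30648620 (folds of 4.47 and 4.44) lay 2 bp from a wildtype H3K27me3 peak, chr24:15753318-15753581 (4.63 and 4.74) 11 bp and chr2:9827435-9827742 (4.81 and 5.01) 14 bp. Outside it, the smallest overlaps with a wildtype peak were 4 bp at chr13:33379209-33379212 (4.04 and 5.33), 9 bp at chr18:5795125-5795225 (5.04 and 4.35) and 11 bp at chr13:19191231-19191241 (3.66 and 5.64). The folds of the 2 mutant replicates lay closer together at the 3 regions inside the limit than at the 3 outside it. This only describes regions picked by position, since each fold is that of a whole merged peak. At the 3 outside, the mutant peaks shared only 4, 101 and 11 bp. The 2 stretches on chromosome 13 thus lay wholly inside a wildtype peak, and both wildtype replicates had a peak there. Their overlaps are small because the shared stretches are short, not because they lie at the edge of a wildtype peak. The region chr13:19191231-19191241 also had wildtype Rnf2 peaks, of 5.45-fold in replicate 1 and 4.30-fold in replicate 2.

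Most mutant-only regions had no wildtype H3K27me3 peak within 5000 bp. Distances were not computed for other positions of the genome, so they only describe these regions. The median distance to the nearest was 187420 bp over the 496 regions with a wildtype peak on the same chromosome or scaffold. For 65 regions (12.8%) it was at most 1000 bp, for 101 (19.8%) at most 5000 bp and for 195 (38.3%) at most 100000 bp. At 70 regions (13.8%) the mutant peak itself reached into a wildtype peak outside the shared stretch, so that these regions adjoin a stretch that is enriched in wildtype too. The 101 regions within 5000 bp of a wildtype peak had a median width of 358 bp and a median fold of 4.77, against 372 bp and 4.66 for the 408 further away. A strong sub-peak in both mutants was found at 37 of the 101 (36.6%) and 91 of the 408 (22.3%). At the 70 regions whose mutant peak reached into a wildtype peak it was found at 28 (40%). Folds and sub-peaks are those of the whole merged mutant peaks. At these 70 regions they can therefore stem from the part that is enriched in wildtype too. Input peaks were rarely close, with 11 regions (2.16%) within 5000 bp of a listed input peak, against 23 (1.36%) of the 1692 regions with a wildtype peak.

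Mutant replicate 3, which the rule did not use, had an H3K27me3 peak at 28 of the 509 mutant-only regions, or 5.50% (95% Wilson interval 3.83 to 7.84%). At regions with 1 wildtype replicate the share was 43 of 356, or 12.1% (9.09 to 15.9%), and at regions with both 591 of 1336, or 44.2% (41.6 to 46.9%). The 3 intervals did not overlap, but they cover counting error only, and since regions of the same libraries are no replicates the sets were not tested against each other. The share was lower at mutant-only regions in each of the 4 bands of width, but the gap was small in the second band. There, from 191 to 366 bp, it was 4 of 128 mutant-only regions against 7 of 138 regions with any wildtype peak. The widest band has no upper limit, and the regions with a wildtype peak in it reach 25105 bp, against 2727 bp for mutant-only regions. Among regions wider than 657 bp, 14.2% of mutant-only regions and 47.6% of regions with any wildtype peak had a peak in mutant replicate 3, and among those of 191 bp or less 0.775% and 7.32%. Within the 4 bands of mean fold the share was 2.36 to 8.66% at mutant-only regions, against 7.95 to 50.6% at regions with a wildtype peak. The short list of mutant replicate 3 limits all of these shares.

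The 28 regions seen in all 3 mutants lay on 17 chromosomes. Their median width was 699 bp, against 357 bp for the other mutant-only regions, and their median mean fold 4.84, against 4.66. The fold of mutant replicate 3 at them was 4.47 to 6.37 with a median of 4.95. The highest was at chr23:44652393-44652977, where mutant replicates 2, 3 and 4 had 4.07, 6.37 and 6.47. The next were chr14:34987993-34988659 with 4.74, 5.54 and 5.05, chr2:53156097-53156337 with 4.17, 5.54 and 4.16, chr16:32053095-32053802 with 4.25, 5.30 and 4.50 and chr7:29815439-29816125 with 4.41, 5.16 and 5.28. No replicate was highest throughout. These peaks of mutant replicate 3 were short, with a median width of 292 bp. Of its 1031 merged peaks 168 touched no wildtype peak, and 84 of those touched no peak of mutant replicate 2 or 4 either.

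**Figure D3:**
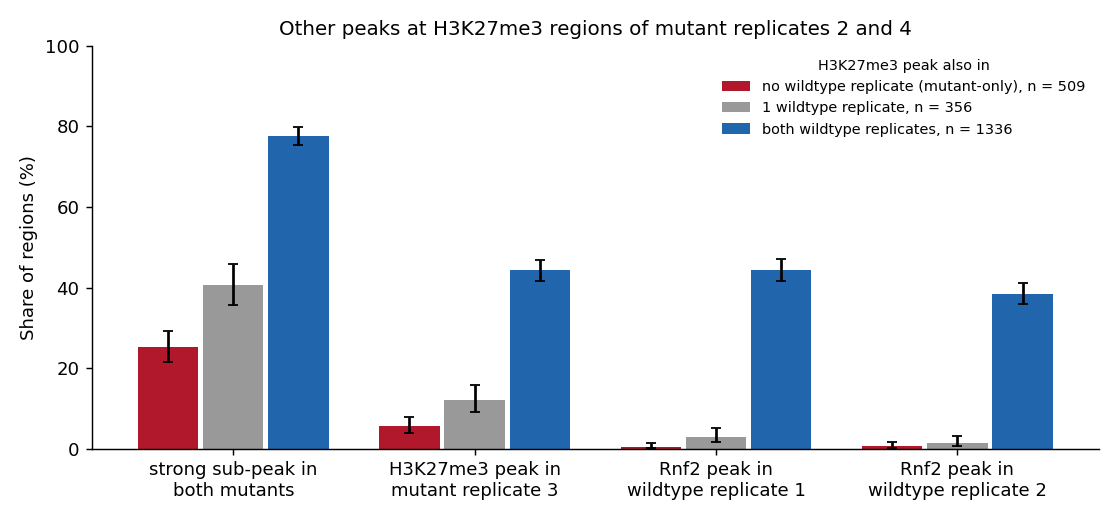
Share of regions (%) with a strong H3K27me3 sub-peak in both mutant replicates 2 and 4, an H3K27me3 peak in mutant replicate 3, and an Rnf2 peak in wildtype replicate 1 or 2, for the 509 mutant-only regions, the 356 with 1 wildtype replicate and the 1336 with both, with 95% Wilson intervals as error bars. Rnf2 peaks of wildtype replicate 1 are at 0.393% of mutant-only regions, 2.81% of regions with 1 wildtype replicate and 44.3% of regions with both. Sub-peaks are counted over the whole merged peaks behind a region.

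Rnf2 peaks of wildtype embryos were almost absent from the mutant-only regions. A wildtype Rnf2 peak, in either replicate, overlapped 4 of 509 (0.786%, interval 0.306 to 2.00%), against 12 of 356 regions with 1 wildtype H3K27me3 replicate (3.37%, 1.94 to 5.80%) and 617 of 1336 regions with both (46.2%, 43.5 to 48.9%). The gap was also found within bands of width and of mean fold. The top band of each has no upper limit, and the regions with 1 wildtype replicate were not banded by themselves. In the bands of width and of mean fold, 0 to 2.34% of mutant-only regions held a wildtype Rnf2 peak, against 15.7 to 45.9% of the regions with any wildtype H3K27me3 peak. Without wildtype H3K27me3 replicate 1 the rule gave a share of 1.78% (14 of 785). With the stricter −log10 q of 3.51 it was 1.28%, which is 1 of 78 regions (interval 0.227 to 6.91%). The nearest wildtype Rnf2 peak was a median of 471366 bp away, and 10 regions (1.96%) had 1 within 5000 bp.

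Counted by sample, Rnf2 peaks overlapped 0, 1 and 1 mutant-only regions in mutant replicates 2, 3 and 4, against 2 and 3 in wildtype replicates 1 and 2. These counts come from lists of 18, 38 and 22 Rnf2 peaks in mutants and 1050 and 1049 in wildtypes, after input removal. Relative to its list, no wildtype sample had more overlaps than mutant replicates 3 and 4. The overlaps of these 2 mutant replicates were at the same region, chr5:9074749-9074910, so they give no rate for the lists. The mean count was 0.667 ± 0.577 regions in mutants (SD, n = 3) and 2.50 ± 0.707 in wildtypes (SD, n = 2). The two-sided exact permutation test gave p = 0.1, which is the smallest that 3 samples against 2 allow, so this design cannot pass 0.05. At the 1692 regions with a wildtype H3K27me3 peak the same samples had 5, 3 and 3 overlaps in mutants and 602 and 519 in wildtypes.

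The 4 regions with a wildtype Rnf2 peak differed in kind. At chr9:21826036-21826276 (241 bp) both wildtype replicates had an Rnf2 peak, of 3.57-fold (−log10 q 2.16) and 3.43-fold (−log10 q 1.32). No mutant sample had one there, and a wildtype H3K27me3 peak lay 26 bp away. At chr17:45256131-45256443 only wildtype replicate 1 had an Rnf2 peak (3.51-fold, −log10 q 1.40), and at chr20:26355872-26356180 only wildtype replicate 2 (3.34-fold, −log10 q 1.48). Both of these −log10 q values lie near the floor of the Rnf2 lists. The H3K27me3 folds of these 2 regions in mutant replicates 2 and 4 were 4.71 and 4.37 on chromosome 17 and 3.94 and 4.05 on chromosome 20. They were close to or below the median of the mutant-only regions. At chr5:9074749-9074910 Rnf2 peaks were listed in mutant replicate 3 (4.60-fold, −log10 q 1.37), mutant replicate 4 (6.98-fold, −log10 q 6.27) and wildtype replicate 2 (7.57-fold, −log10 q 10.0). This 162 bp region, which is also the second by H3K27me3 fold, thus gave Rnf2 peaks in embryos of both genotypes, including embryos labelled *rnf2* mutant. The regions on chromosomes 17 and 20 were singled out after their values had been seen.

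By chromosome, mutant-only regions were found on all 25 chromosomes and on 8 unplaced scaffolds. Chromosome 14 had most (41), followed by chromosomes 2 (31) and 10 (29), and chromosome 4 had fewest (9). Per Mb, with the highest peak end taken as chromosome length, chromosome 14 had 0.791, chromosome 10 had 0.637 and chromosome 4 had 0.118. As a share of the common regions on each numbered chromosome, the values were 14.9% on chromosome 16 to 35.4% on chromosome 10, with 28.1% on chromosome 14. No chromosome was tested against the rest, since the rule used these peaks and neighbouring regions can come in runs.

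**Figure D4:**
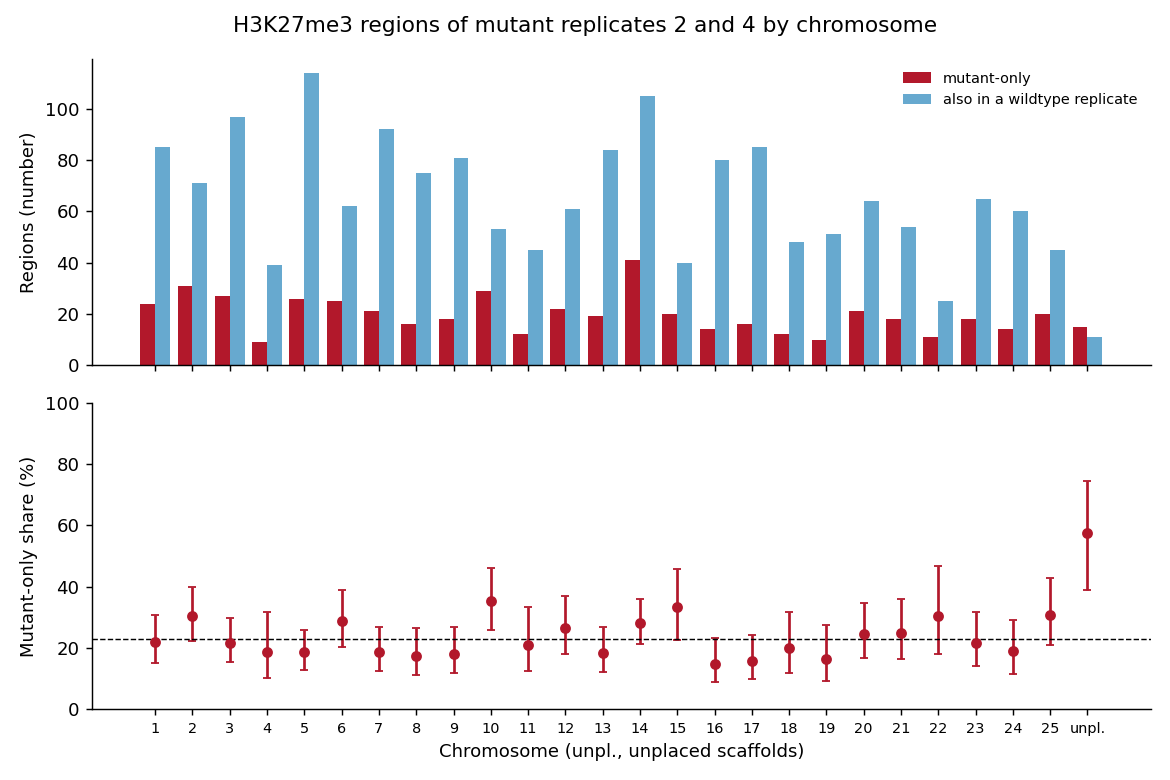
Number of mutant-only regions and of regions with a wildtype peak on each chromosome (upper panel), and the mutant-only share of both together (%, lower panel) with 95% Wilson intervals (counting error only) and a dashed line at 23.1%. The share is 35.4% on chromosome 10, 28.1% on chromosome 14 and 57.7% on the unplaced scaffolds, where 15 of 26 regions are mutant-only.

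On unplaced scaffolds 15 of 26 common regions were mutant-only (57.7%), against 23.1% of all common regions. This is a description, since the rule used these peaks and 10 of the 15 lie in 3 runs on 3 scaffolds. Of the 15, 13 were on 6 scaffolds with no deposited H3K27me3 peak in either wildtype replicate. They concentrated on KN150240.1 (4 regions), KN149993.1 (3) and KN150242.1 (3). On KN150240.1 mutant replicates 2, 3 and 4 had 4, 0 and 5 deposited H3K27me3 peaks, against 0 and 0 in wildtype replicates 1 and 2. No Rnf2 or input peak was listed on these 3 scaffolds in any sample. Over all unplaced scaffolds the genotypes overlapped in their number of H3K27me3 peaks, with 57, 39 and 53 deposited peaks in mutant replicates 2, 3 and 4, against 45 and 48 in wildtype replicates 1 and 2.

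Some mutant-only regions came in groups. With members at most 20000 bp apart joined, 63 of the 509 (12.4%) fell into 23 runs, 16 of which were pairs and 7 of which had 3 or more members. The 3 with most members on numbered chromosomes were chosen for a closer description after the values were seen. The largest had 8 members in 73825 bp at chr14:2113422-2187246. The next, with 6 members in 24927 bp, lay at chr14:2348803-2373729 on the same chromosome, and a run of 4 members in 30967 bp lay at chr10:21699245-21730211. The members of the first run were 261 to 2379 bp wide with a median of 1088.5 bp, well above the 366 bp of all mutant-only regions. Their folds were 3.97 to 5.52 in mutant replicate 2 and 4.55 to 6.79 in mutant replicate 4. In the second run the median width was 943.5 bp, with folds of 4.22 to 5.49 in mutant replicate 2 and 4.40 to 5.48 in mutant replicate 4. No member of the 3 runs had a peak in mutant replicate 3.

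The runs were not empty of peaks in wildtype. Peaks that touched the first run, before input removal, numbered 12, 1 and 16 in mutant replicates 2, 3 and 4, against 2 and 2 in wildtype replicates 1 and 2. They covered 15908, 355 and 21461 bp in the mutants, against 1200 and 1187 bp in the wildtypes. Both wildtypes were below mutant replicates 2 and 4 but above mutant replicate 3. In the second run the peaks covered 13517, 0 and 12608 bp in mutant replicates 2, 3 and 4, against 192 and 694 bp in wildtype replicates 1 and 2. In the chromosome 10 run they covered 12080, 1009 and 12287 bp in the mutants, against 3406 and 4007 bp in the wildtypes. The highest wildtype fold in the 3 runs was 4.38, in wildtype replicate 2, whose whole H3K27me3 list has a median fold of 4.05. No Rnf2 peak was listed in any of the 5 Rnf2 samples at these runs, and 1 input peak (319 bp, wildtype) touched the second run. The wildtype lists thus held some H3K27me3 peaks inside each of the 3 runs, between the mutant-only regions.

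**Figure D5:**
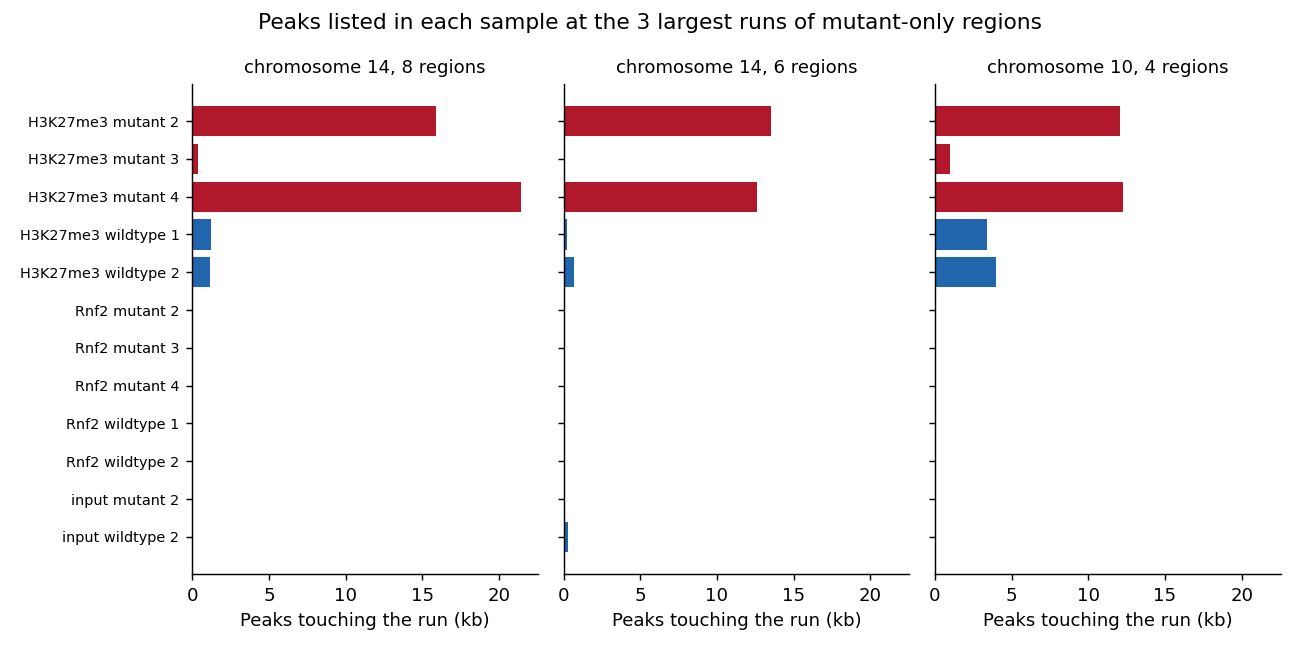
Total length (kb) of the merged peaks that touch each of the 3 largest runs of mutant-only regions on numbered chromosomes, before input removal, for each of the 12 samples (H3K27me3, Rnf2 and input, mutant bars red and wildtype bars blue). H3K27me3 peaks of mutant replicates 2 and 4 cover 12080 bp or more at each run, wildtype replicates 1 and 2 at most 4007 bp, mutant replicate 3 at most 1009 bp, and Rnf2 samples none.

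A smaller run lay near the start of chromosome 15. At chr15:78914-84846 there were 3 members in 5933 bp, of which only the first, chr15:78914-81556, had a peak in mutant replicate 3 (5.06-fold). The nearest wildtype H3K27me3 peak was at least 1601397 bp away from each of them. Within 200000 bp of a chromosome start lay 9 of 494 mutant-only regions (1.82%, interval 0.961 to 3.43%), among them the 3 members of this run. The share was 6 of 350 (1.71%) at regions with 1 wildtype replicate. At regions with any wildtype peak it was 17 of 1681 (1.01%, interval 0.632 to 1.61%), so the intervals overlapped. Which genes lie beside the mutant-only regions, and whether they changed in RNA, was not analysed here, since no annotation of GRCz10 was used.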

How the data were processed

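ChIP-seq of H3K27me3 and Rnf2 was analysed in 3 *rnf2* mutant and 2 wildtype pools of embryos per antibody, with 1 input per genotype. Per the study's methods the authors removed reads at random by the *Drosophila* spike-in, mapped with BWA 0.7.15 to GRCz10, excluded duplicate and multimapping reads, and listed broad peaks with MACS2 2.1.1. The deposited lists are per sample and not pooled. They give the positions of each peak and its blocks, a ratio (the authors' fold enrichment over background) and −log10 q values. Every sample is labelled as having a spike-in, whereas the names of the wildtype replicate 2 lists carry no mark of normalization (the entries of its H3K27me3 list do). The entries of the Rnf2 list of mutant replicate 3 bear a name that starts as the wildtype names do. The depth is unknown, since the lists hold no read counts.

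Merging (1000 bp), removal of peaks on either input and overlaps (1 bp or more) were computed in Python 3.11.15 with numpy 2.4.6 and scipy 1.17.1, and the interval code was tested on simulated data. A merged peak took the highest fold and −log10 q of its parts. No H3K27me3 peak was under the minimum width of 100 bp. Shares have 95% Wilson intervals, which cover counting error only. Overlaps per sample were compared with a two-sided exact permutation test. That the pools are separate collections of embryos is not stated for each replicate, so the p of this test refers only to these samples. Figures were drawn with matplotlib 3.10.9.

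Regions named in the text are the 10 with the highest mean fold in mutant replicates 2 and 4, the 5 widest, the 5 with the highest fold in mutant replicate 3 and those with an Rnf2 peak in both wildtype replicates. Also named are the 3 members nearest to a wildtype peak and the 3 other regions with the smallest overlap with one. The rule, the members and the lists were chosen with earlier results of these data known. Alternatives were no merging, other treatments of the input, other overlaps and distances, a stricter −log10 q and leaving out each replicate. RNA-seq tests of nearby genes were planned only for an annotation of GRCz10 and were not run, so the RNA data were not used here.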

Additional observations from a re-analysis of the deposited data

How the results depend on the processing

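With only mutant peaks at or above the median −log10 q (3.51), 78 of 997 common regions met the rule in place of 509 of 2201. Leaving out a replicate gave 589 of 2201 to 1068 of 2855 regions. The share with a peak in mutant replicate 3 was then 3.79 to 7.39%, the lowest being without mutant replicate 4. The share with a wildtype Rnf2 peak was then 1.02 to 1.78%. Leaving out a mutant replicate drops the demand for a second mutant peak, and leaving out a wildtype replicate drops a condition against membership. The other settings gave 408 of 2201 regions (a wildtype peak within 5000 bp ended membership) to 575 of 2797 (no merging). With the stricter −log10 q the share with a wildtype Rnf2 peak was 1.28% (1 of 78, interval 0.227 to 6.91%), against 0.786% (4 of 509) as reported. In 24 of 24 recomputed shares, for mutant replicate 3 or wildtype Rnf2 peaks, the mutant-only regions stayed below the regions with a wildtype peak. The mean number of mutant-only regions with an Rnf2 peak stayed lower in mutants than in wildtypes in each of the 6 alternatives run. These are raw counts from lists that, after input removal, held 18, 38 and 22 Rnf2 peaks in mutants, against 1050 and 1049 in wildtypes. Their direction cannot be told apart from list length. No paired analysis was possible, since mutants came from crosses of heterozygous fish and controls from a wildtype strain. A shared replicate number is not given as a pairing. The region counts come from no test. The tests of nearby genes were not run. Peak lists without read counts cannot show whether a region just missed the threshold in a sample where it has no peak.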
